A study of Mus musculus with 4 samples.

Results

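The 10 genes described here encode enzymes that build or trim gangliosides, the sialic acid-bearing glycolipids to which GD2, the target of the antibody dinutuximab, belongs. They were taken by symbol as a fixed list, and all 10 were among the 43432 genes in the count table. Of them 9 passed the low-count filter, and St8sia5 had 0 counts in every library. RNA was sequenced from 4 subcutaneous tumours of 9464D-GD2 cells, a GD2-bearing mouse neuroblastoma line, in female C57BL/6 mice. The parent line 9464D comes from a mouse that carries a MYCN transgene. One group of 2 tumours (replicates 3 and 4) came from mice given 25 µg dinutuximab per dose, and the other 2 (also replicates 3 and 4) from mice given 25 µg dinutuximab with 20 µg small extracellular vesicles (sEVs) that 9464D-GD2 cells had released. Both groups were dosed 2 times per week for 5 treatments, so that every tumour had received the antibody and no untreated tumour is compared. The age of the mice is not given in the sources used here, nor is the way in which the line came to display GD2. Counts of St8sia1 and B4galnt1 therefore cannot tell transcripts of the mouse's own gene from those of an added copy.

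Gangliosides are made one sugar at a time in the Golgi. Ugcg puts glucose on ceramide, B4galt5 and B4galt6 add galactose to give lactosylceramide, and St3gal5 adds a sialic acid to give GM3. St8sia1, the GD3 synthase, adds a second sialic acid and so opens the b-series, and B4galnt1 then converts GD3 to GD2. B3galt4 extends GD2 and GM2 to longer gangliosides, St3gal2 and St8sia5 sialylate those, and Neu3 is a plasma membrane sialidase that removes sialic acid from gangliosides. GD2 is abundant on neuroblastoma cells and scarce on most normal cells, which is why antibodies against it are used in this disease.

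The libraries held between 24452699 and 28187573 counts. Principal component analysis set the sEV replicate 3 library apart on its leading axis, which held 42.4% of the variance, at 35.2 against -16.3 to -5.96 for the other 3, and values without it are given beside the members' results. Replicates of a group differed by more than counting noise (chi-square per degree of freedom of 23.9 and 26.4). Pairs across the groups ran from 22.6 (dinutuximab 4 and sEV 4) to 35.8 (dinutuximab 4 and sEV 3). The neuroblastoma markers Hand2 (145 to 172 CPM) and Mycn (133 to 162 CPM) were well measured in all libraries, whereas Dbh had 0 counts throughout and Th at most 3. CPM is the count scaled to the library's TMM-adjusted size.

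By edgeR's quasi-likelihood test with Benjamini-Hochberg adjustment at 0.05, no member was called higher or lower with sEVs. The background was the same: 0 of 13823 genes (0%) were higher and 0 (0%) lower, with 341 (2.47%) higher and 429 (3.10%) lower at an unadjusted p under 0.05. With total-count scaling that unadjusted split was 472 and 321. DESeq2 called 17 genes higher and 38 lower and limma-voom 0 and 0, and no member was among them. Of the 9 tested members, 8 had a positive log2 fold change (sEV group over dinutuximab group) and 1, Ugcg, a negative one, where 50.3% of all genes were above 0. The members' median was 0.18 against 0.00 over all genes tested. Without sEV replicate 3, 6 were positive and 3 negative, and the median was 0.01. Without dinutuximab replicate 3 the median was 0.08.

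**Figure D1:**
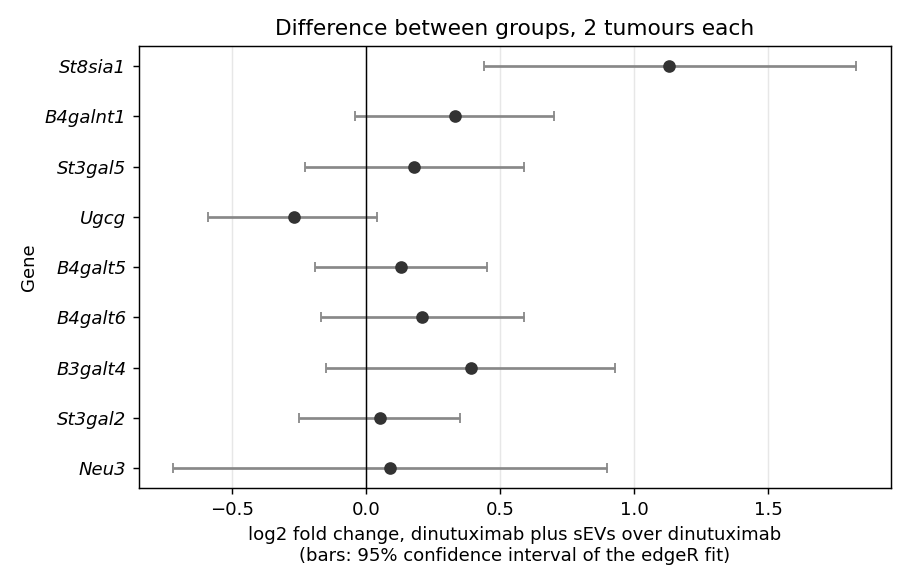
Log2 fold change of each tested member, tumours given dinutuximab plus sEVs over tumours given dinutuximab (2 each), with its 95% confidence interval from the edgeR fit. The interval of St8sia1 runs from 0.44 to 1.83 and lies above 0, and those of the other 8 members include 0; none passed adjustment over all genes.

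St8sia1, which makes the GD3 from which GD2 is built, had the largest difference of the members. It had 113 counts in each dinutuximab library, and 335 and 204 in the sEV libraries. In CPM these were 4.40 and 4.63 with dinutuximab (mean 4.52 ± 0.158, SD, n = 2) and 12.8 and 7.07 with sEVs (9.93 ± 4.05, SD, n = 2). Both tumours given sEVs lay above both given the antibody alone, and the 2 sEV tumours differed from each other more than the 2 dinutuximab tumours did. The log2 fold change was 1.13 ± 0.30 (SE), a 2.20-fold higher mean, with an unadjusted p of 0.0053 and an adjusted p of 0.614 in the edgeR test over all genes. An increase at least this large was seen in 72 of the 13823 genes tested (0.521%). Without sEV replicate 3 the log2 fold change was 0.64. It was 1.10 without dinutuximab replicate 3 and 1.17 without dinutuximab replicate 4. Without sEV replicate 4 it was 1.50, with sEV replicate 3, the library set apart above, as the only sEV library. With no low-count filter it was 1.13 and called (edgeR adjusted p = 0.0031), in a fit in which all genes shared 1 variance trend. That fit called 107 of 22003 genes higher and 155 lower. DESeq2 gave 1.13 with an adjusted p of 0.140. Over the alternative settings that kept every library, the adjusted p ran from 0.0031 to 0.741.

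B4galnt1, the GD2 synthase, had 71.6 and 90.5 CPM with dinutuximab (mean 81.0 ± 13.4, SD, n = 2) and 112 and 92.7 CPM with sEVs (102 ± 13.3, SD, n = 2). The groups did not overlap, but dinutuximab replicate 4 and sEV replicate 4 lay close together. The log2 fold change was 0.33 ± 0.16 (SE), with a 95% interval from -0.04 to 0.70 and an edgeR adjusted p of 0.887. It was 0.17 without dinutuximab replicate 3, 0.19 without sEV replicate 3, and 0.51 without dinutuximab replicate 4. B4galnt1 shares 715 bases of exon with Slc26a10 on the opposite strand, which had between 1 and 4 counts in a library.

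**Figure D2:**
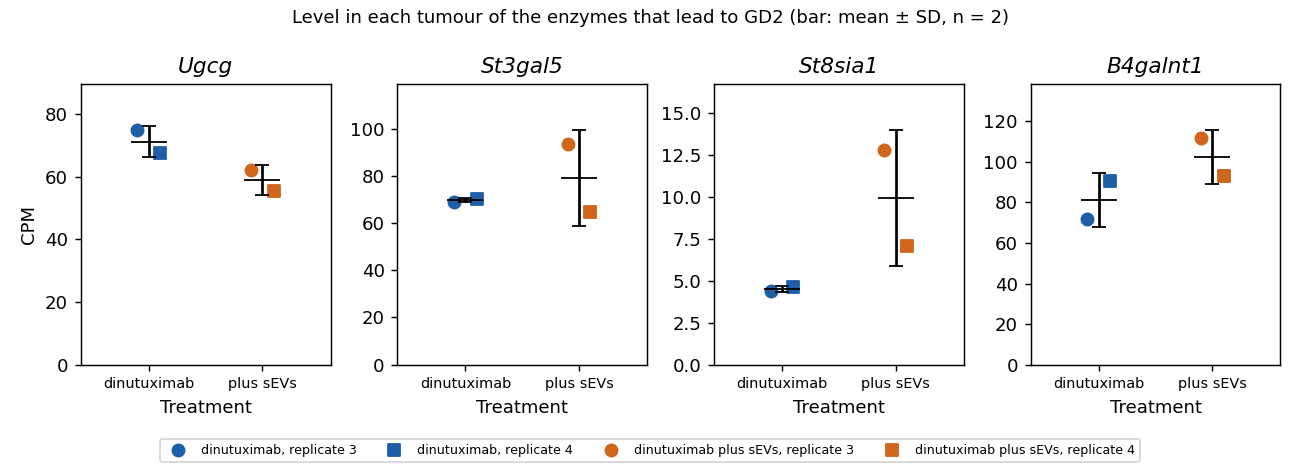
CPM in each tumour of Ugcg, St3gal5, St8sia1 and B4galnt1, in the order in which they act on the way to GD2; points are tumours and bars the mean ± SD (n = 2), and each axis starts at 0 with its own scale. St8sia1 stands at 4.40 and 4.63 CPM with dinutuximab and at 12.8 and 7.07 CPM with sEVs, while both Ugcg values with sEVs lie below both with dinutuximab.

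The steps ahead of GD3 differed less. Ugcg, which commits ceramide to this pathway, had 74.8 and 67.7 CPM with dinutuximab and 62.3 and 55.6 CPM with sEVs. It was the member with a negative value, with both sEV tumours below both others. Its log2 fold change was -0.27 ± 0.14 (SE; 95% interval -0.59 to 0.04, edgeR adjusted p = 0.887), -0.37 without sEV replicate 3 and -0.19 without sEV replicate 4. St3gal5, the GM3 synthase, had 69.1 and 70.3 CPM with dinutuximab and 93.3 and 64.7 CPM with sEVs. The sEV tumours thus lay on either side of the dinutuximab tumours, and the log2 fold change of 0.18 ± 0.18 (SE; edgeR adjusted p = 0.934) was -0.12 without sEV replicate 3.

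The lactosylceramide step is shared by B4galt5 and B4galt6. B4galt5 had 147 and 163 CPM with dinutuximab and 183 and 156 CPM with sEVs, values that overlap (log2 fold change 0.13 ± 0.14, SE; edgeR adjusted p = 0.942), and its log2 fold change was 0.00 without sEV replicate 3. B4galt6 had 31.9 and 42.5 CPM with dinutuximab and 43.4 and 42.8 CPM with sEVs (0.21 ± 0.17, SE; edgeR adjusted p = 0.909). For B4galt6 dinutuximab replicate 3 was the low library and the other 3 were alike; without it the log2 fold change was 0.02, and without sEV replicate 3 it was 0.19. Per kb of exon, B4galt5 exceeded B4galt6 by between 4.93 and 6.20 times in each library.

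Downstream of GD2, B3galt4, which adds galactose to GD2 and GM2, had 5.18 and 6.22 CPM with dinutuximab and 8.10 and 6.83 CPM with sEVs. The groups did not overlap, and its log2 fold change of 0.39 ± 0.24 (SE; 95% interval -0.15 to 0.93, edgeR adjusted p = 0.908) was the second largest of the members. Without sEV replicate 3 it was 0.25. St3gal2, which adds a terminal sialic acid to the longer chains, had 75.7 and 83.5 CPM with dinutuximab and 85.6 and 78.7 CPM with sEVs. It had the narrowest interval of the members, from -0.25 to 0.35 around 0.05, and its value was -0.02 without dinutuximab replicate 3 and also without sEV replicate 3. Neu3, the sialidase, had between 32 and 38 counts in a library and 1.29, 1.31, 1.45 and 1.32 CPM (dinutuximab 3 and 4, then sEV 3 and 4). Its log2 fold change of 0.09 had a 95% interval from -0.72 to 0.90 and was 0.01 without sEV replicate 3. For St8sia5, 0 counts allow up to 3 counts per library, or at most 0.123 CPM, a limit that covers counting error only.

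Counting by groups that do not overlap, 5 of the 9 tested members were higher in both sEV tumours (St8sia1, B4galnt1, B4galt6, B3galt4 and Neu3), where 18.1% of all genes tested were. One, Ugcg, was lower in both, where 16.5% of all genes were. Since 2 tumours against 2 give an exact two-sided permutation p of no less than 0.333 for a single gene, no such test was made. For B4galt6 and Neu3 the gap between the groups was small.

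Levels of different genes were compared per length, as CPM per kb of the gene's annotated exons. B4galt5 stood highest, with a mean of 37.7 CPM per kb over the 4 libraries, followed by St3gal5 (28.4) and B4galnt1 (26.5). These neighbours overlapped in range: St3gal5 ran from 24.7 to 35.6 and B4galnt1 from 20.7 to 32.3 CPM per kb. St3gal2 (16.0), Ugcg (12.5), B4galt6 (6.92) and B3galt4 (4.17) followed in this order in every library, with ranges that did not overlap. St8sia1 came next at 0.773 CPM per kb (0.471 to 1.37), and Neu3 at 0.401 (0.385 to 0.434). Among tested genes with a length, St8sia1 stood at the percentile 16.9 and B4galnt1 at 84.1. The position of St8sia1 depends on the length used, because its annotated exons span 9341 bases of which 1135 are coding. Whole-gene CPM divided by kb of coding length averaged 6.37 for St8sia1, next to B3galt4 at 5.91. That was still below B4galt6 at 35.0 and B4galnt1 at 57.3. The counts include reads on untranslated exon, so these values are not levels of the coding part.

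**Figure D3:**
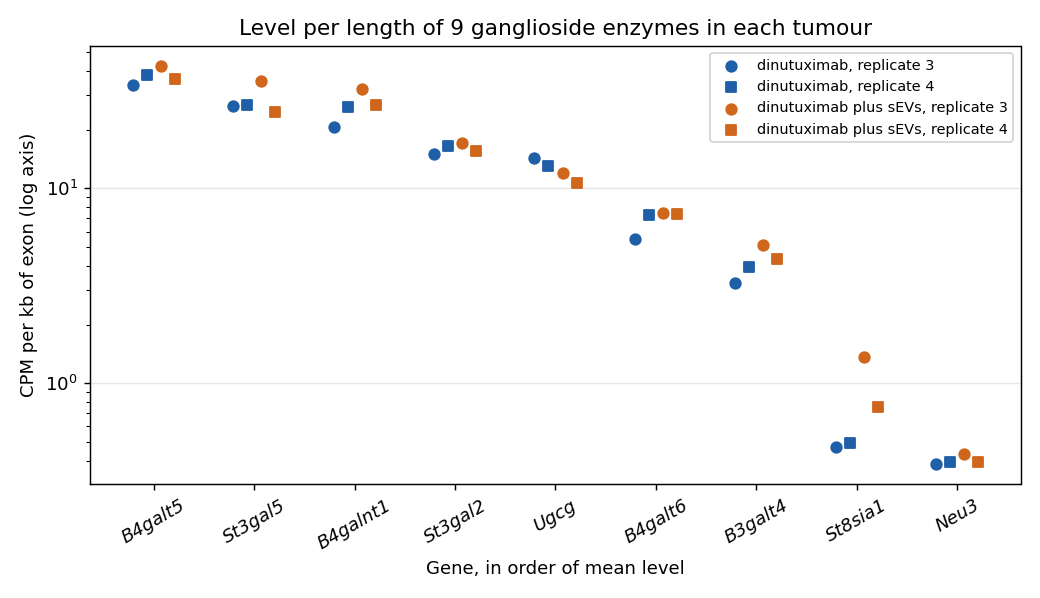
CPM per kb of exon of the 9 members with counts, in each of the 4 tumours, on a log axis; genes are in order of mean level. St8sia1 and Neu3 lie apart at the low end, with means of 0.773 and 0.401 CPM per kb, and the 2 St8sia1 values with sEVs stand above those with dinutuximab.

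Ratios between members within 1 library do not depend on the scaling between libraries. B4galnt1 exceeded St8sia1 per kb of exon by 44.0 and 52.9 times with dinutuximab, and by 23.6 and 35.5 times with sEVs. St3gal5 exceeded St8sia1 by 56.0 and 54.2 times with dinutuximab, and by 26.0 and 32.7 times with sEVs. With the same whole-gene counts divided by coding length, the ratios are smaller. They were 11.5 and 13.9, then 6.19 and 9.31, for B4galnt1, and 12.2 and 11.9, then 5.69 and 7.14, for St3gal5. The groups did not overlap in these ratios, and sEV replicate 3 had the lowest value. The choice of length scales a ratio alike in every library, so both lengths give this order by construction. B4galnt1 over B3galt4, the enzymes that make and extend GD2, was 6.32 and 6.65 with dinutuximab and 6.30 and 6.21 with sEVs, so that these genes kept nearly 1 proportion. B4galnt1 over Ugcg was 1.44 and 2.02 with dinutuximab and 2.70 and 2.52 with sEVs. Set against Mycn, per kb of exon, St8sia1 was 0.0116 and 0.0101 with dinutuximab and 0.0282 and 0.0179 with sEVs. Set against Hand2, it was 0.0072 and 0.0081 with dinutuximab and 0.0196 and 0.0104 with sEVs. Whether the Mycn counts include reads of the MYCN transgene was not tested. These ratios were not tested and share their libraries with the fold changes above.

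**Figure D4:**
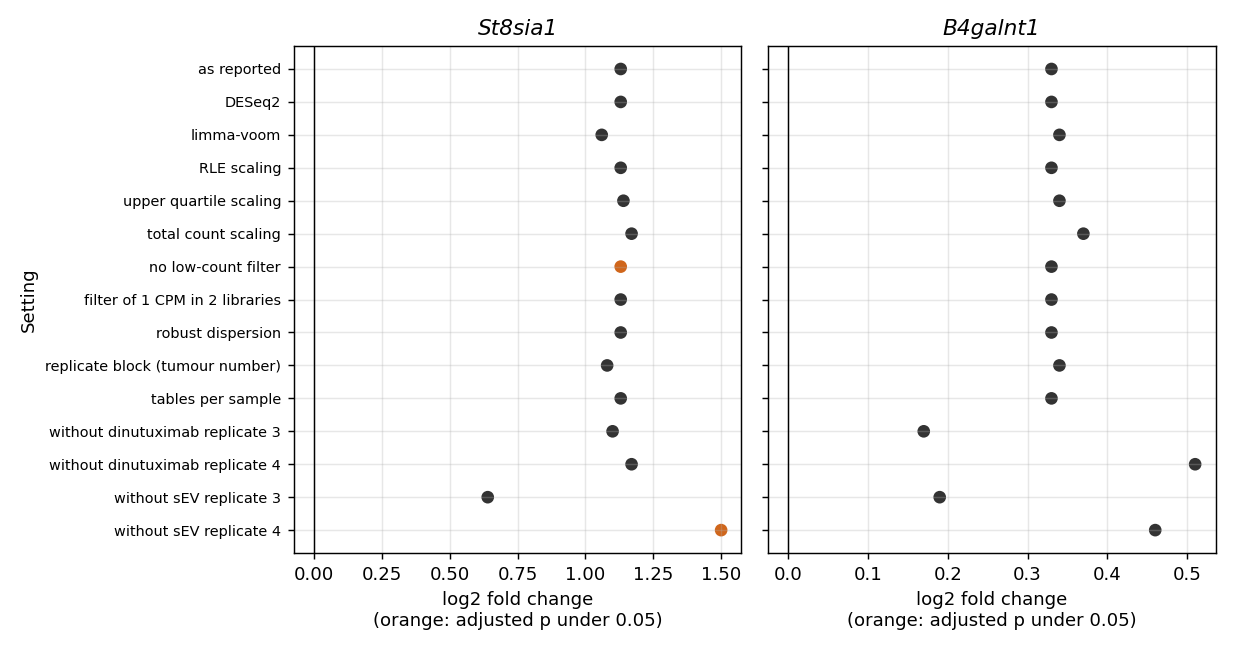
Log2 fold change of St8sia1 (left) and B4galnt1 (right) under each processing setting and with each library left out; orange marks an edgeR, limma or DESeq2 adjusted p under 0.05. St8sia1 lies above 0 in every setting drawn, lowest at 0.64 without sEV replicate 3 and highest at 1.50 without sEV replicate 4. B4galnt1 lies between 0.17 and 0.51. Where a library is left out, its group has a single tumour.

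Tumours are mixtures, and in bulk RNA a change in the number of cells of a type cannot be told apart from a change in RNA per cell. The 11 macrophage markers were all tested, 10 with positive values. They summed to 1908 and 2033 CPM with dinutuximab and 2240 and 2281 CPM with sEVs, most of it C1qa, C1qb and C1qc. Their median log2 fold change was 0.16, in a range from -0.04 (Adgre1) to 0.72 (Cd163). Without sEV replicate 3, 8 of these markers were positive and 3 negative. All 6 endothelial markers had negative values (summed 118 and 127 CPM, then 97.3 and 90.9 CPM), and all 5 red blood cell markers positive ones (35.0 and 21.2 CPM, then 70.1 and 42.3 CPM). Of 7 fibroblast markers 3 were positive and 4 negative, summing to 635 and 626 CPM with dinutuximab and 892 and 743 CPM with sEVs. Dcn and Col3a1 made up most of that sum and had positive values, while the list's median log2 fold change was -0.44 and Col1a1 (-0.44), Col1a2 (-1.57) and Pdgfrb (-0.94) were negative with an unadjusted edgeR p under 0.05. The 8 tested adrenergic neuroblastoma markers had 4 positive and 4 negative values, and the list summed to 353 and 386 CPM with dinutuximab and to 407 and 375 CPM with sEVs. The 9 markers of melanocytes and Schwann cells, which share the neural crest origin of neuroblastoma, summed to 29.7 and 40.3 CPM with dinutuximab and to 37.6 and 33.4 CPM with sEVs. Most of this was Mitf, which macrophages also express; Tyr and Mlana had 0 counts in every library and Sox10 at most 3. Summed levels reached at most 12.4 CPM in a library for skeletal muscle, 7.69 CPM for T and NK cells, 5.79 CPM for neutrophils, 2.95 CPM for B cells, 1.72 CPM for keratinocytes and 0.156 CPM for adipocytes. Of 13 immediate early and heat shock genes, which can respond to tissue handling among other signals, 12 had negative values (summed 803 and 719 CPM, then 638 and 623 CPM). Handling itself was not measured. The 4 genes known to pick up rRNA reads held 5.77% and 6.03% of the dinutuximab libraries' counts, against 4.83% and 4.11% of the sEV libraries'. The part of these differences in the St8sia1, B4galnt1 and Ugcg values was not tested.

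The upstream 250 bases of St8sia1 and B3galt4 are shown because these members had the largest log2 fold changes; the windows lie outside their GENCODE transcripts. They come from RefSeq (GRCm38.p6), 5′ to 3′ on the minus strand on which both genes lie, and end at the base before the start. Capitals mark GGGCGG (the GC box) and CCAAT, searched on both strands with overlapping matches counted.
St8sia1, chr6:142964453-142964702: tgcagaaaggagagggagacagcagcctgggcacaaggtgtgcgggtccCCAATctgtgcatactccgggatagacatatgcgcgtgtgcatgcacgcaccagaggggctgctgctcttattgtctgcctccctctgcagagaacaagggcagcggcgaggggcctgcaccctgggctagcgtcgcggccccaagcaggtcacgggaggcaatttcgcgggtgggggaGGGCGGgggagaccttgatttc
B3galt4, chr17:33951489-33951738: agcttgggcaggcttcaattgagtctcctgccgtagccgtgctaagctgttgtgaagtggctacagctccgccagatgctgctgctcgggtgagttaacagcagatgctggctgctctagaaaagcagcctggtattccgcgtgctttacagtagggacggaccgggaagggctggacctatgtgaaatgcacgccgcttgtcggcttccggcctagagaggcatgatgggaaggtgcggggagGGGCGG

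St8sia1 held 1 GC box and 1 CCAAT in this window, and B3galt4 held 1 GC box and no CCAAT. Of 32851 such windows over all genes, 32.7% held a GC box and 33.8% a CCAAT. The median GC content of all windows was 52.4%, against 63.6% in St8sia1 and 59.2% in B3galt4. Windows were available for 6 of the 10 members, and the number of GC boxes in the other 4 was 7 in B4galt5, 2 in Ugcg, 2 in St3gal5 and 1 in Neu3. St3gal5 and Neu3 held 1 CCAAT each, and B4galt5 and Ugcg none. Their GC content was 73.2% (B4galt5), 80.4% (Ugcg), 71.6% (St3gal5) and 49.2% (Neu3). By the GENCODE positions, the Ugcg window lies inside the gene, and those of St3gal5 and B4galt5 run into theirs. None of the 6 windows held CACGTG, the E-box bound by MYC family proteins (6.02% of all windows), or TATAAA (12.4%). These matches describe the letters only.

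On GRCm38, St8sia1 (ENSMUSG00000030283) spans 142821545 to 142964452 on the minus strand of chromosome 6 and St3gal5 (ENSMUSG00000056091) 72097592 to 72154571 on its plus strand. On chromosome 10, B4galnt1 (ENSMUSG00000006731) runs from 127165225 to 127172330, and on chromosome 4, Ugcg (ENSMUSG00000028381) runs from 59189257 to 59222833, both on the plus strand. B4galt5 (ENSMUSG00000017929) spans 167298444 to 167349183 on the minus strand of chromosome 2, and B3galt4 (ENSMUSG00000067370) 33949909 to 33951488 on that of chromosome 17. St3gal2 lies on chromosome 8, where it spans 110919922 to 110972480 (ENSMUSG00000031749, plus strand), and Neu3 (ENSMUSG00000035239) on chromosome 7, from 99811439 to 99828417 on the minus strand. B4galt6 (ENSMUSG00000056124) and St8sia5 (ENSMUSG00000025425) lie on chromosome 18. All 10 are protein-coding genes, and each value is for the gene as a whole.

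The rest of the pathway was read from 5 further lists of 62 symbols, of which 61 matched and 48 were tested. None was called in either direction by edgeR (background 0%), 31 had positive and 17 negative values (50.3% of all genes were positive), and 13 were higher and 4 lower in both sEV tumours (18.1% and 16.5% of all genes). Without sEV replicate 3, 24 were positive and 24 negative. Only Cers2, a ceramide synthase for very long acyl chains, had an unadjusted p under 0.05. It had 311 and 317 CPM with dinutuximab and 442 and 351 CPM with sEVs, a log2 fold change of 0.34 ± 0.15 (SE; edgeR adjusted p = 0.885) that was 0.15 without sEV replicate 3.

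Ceramide supply, the material for Ugcg, had 16 tested genes, 12 positive and 4 negative, with a median log2 fold change of 0.13; without sEV replicate 3, 9 were positive and 7 negative, with a median of 0.01. Cers4, another ceramide synthase, had 23.4 and 21.3 CPM with dinutuximab and 40.2 and 22.0 CPM with sEVs, a difference carried by sEV replicate 3. Degs1, the desaturase that completes ceramide, had a log2 fold change of 0.14 ± 0.14 (SE). The log2 fold change without sEV replicate 3 was -0.04 for Cers4 and 0.02 for Degs1.

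Among other glycolipid transferases 6 of 12 were tested, 4 positive and 2 negative (median 0.08; 5 and 1, median 0.13, without sEV replicate 3). St6galnac6, which makes alpha-series and disialyl gangliosides, had 70.4 and 82.0 CPM with dinutuximab and 90.0 and 93.6 CPM with sEVs (log2 fold change 0.27 ± 0.13, SE). B3galnt1, the globoside synthase, had 49.5 and 44.6 CPM, then 60.0 and 56.6 CPM (0.31 ± 0.14, SE). St3gal1, a sialyltransferase of O-glycans and gangliosides, had 0.01 ± 0.14 (SE). Leaving out sEV replicate 3 gave 0.29 for St6galnac6, 0.26 for B3galnt1 and 0.05 for St3gal1. St8sia3 and Ugt8a, the enzyme of galactosylceramide, had 0 counts in every library.

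Lysosomal breakdown genes had 13 tested members, 9 positive and 4 negative (median 0.13); without sEV replicate 3, 6 were positive and 7 negative. Gm2a, the activator that presents GM2 to hexosaminidase, had 98.4 and 109 CPM with dinutuximab and 127 and 128 CPM with sEVs (log2 fold change 0.29 ± 0.13, SE; edgeR adjusted p = 0.885). Asah1, the acid ceramidase, had 0.30 ± 0.16 and Psap, the saposin precursor, 0.25 ± 0.16 (SE). With sEV replicate 3 left out, the log2 fold change was 0.29 for Gm2a, 0.07 for Asah1 and 0.21 for Psap. The sialidase genes Neu2 and Neu4 had 0 counts in every library, and Neu1, the lysosomal one, between 41.4 and 48.4 CPM.

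Genes for sugar donors had 11 tested members, 5 positive and 6 negative (median -0.01); without sEV replicate 3, 3 were positive and 8 negative. Cmas, which activates sialic acid to CMP-sialic acid, the donor used by St3gal5 and St8sia1, had 168 and 121 CPM with dinutuximab and 111 and 122 CPM with sEVs (log2 fold change -0.31 ± 0.17, SE). Dinutuximab replicate 3 was the high library, and the groups overlapped. Npl, a lyase that degrades sialic acid, had 0.33 ± 0.21 (SE), which was -0.01 without sEV replicate 3. Galk1, the galactokinase, had 0.05 ± 0.15 and Nans, a sialic acid synthase, -0.01 ± 0.13. Leaving out sEV replicate 3 gave -0.26 for Cmas, -0.04 for Galk1 and -0.01 for Nans. Of the genes that add or remove O-acetyl groups on sialic acid, Casd1 had -0.12 ± 0.14 and Siae 0.29 ± 0.16 (SE). Casd1 had -0.09 and Siae 0.30 without sEV replicate 3.

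The tested genes most like St8sia1 in their profile over the 4 libraries were Cd59a, Clec1a and Lrrc17, with a root mean square difference in centred log2 CPM of 0.0611, 0.0870 and 0.0940, among 10279 genes searched. For B4galnt1 they were Zcchc24 (0.0085), Ly75 (0.0118) and Ppp4r1l-ps (0.0134). With 4 libraries many genes have near profiles, and these are descriptions only.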

How the data were processed

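For 4 tumours the authors deposited raw counts by Ensembl gene ID, in 1 table of the series and again in 1 per sample, and all 173728 values were equal in both. STAR, SAMtools, HTSeq and mm10 are named in the submitters' processing notes. Their versions, the annotation release and the strand setting are not given in the sources used here. GENCODE M21 (GRCm38) gave names to 42462 of 43432 IDs, and positions and exon lengths. Tests used edgeR 4.0.16 in R 4.3.3: filterByExpr, TMM scaling, the quasi-likelihood F test with group as the only term, and Benjamini-Hochberg adjustment over 13823 genes. SE is the log2 fold change over the root of F, and intervals are at 95%. Alternatives used DESeq2 1.42.0, limma 3.58.1, other scalings and filters, a replicate block and leaving out each library. The code was tested on simulated data. Tumours of a group are biological replicates, per the series design. Members, lists and tests were chosen with earlier results of these data known. Of each pathway list, the 2 tested genes of lowest p and the 2 of highest mean CPM are named, where none was called. Neu1 and genes at 0 counts were named after their values were seen. So were the lists of immediate early and heat shock, ribosomal RNA read and sialic acid-binding genes. Some marker genes are not reported here.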

Additional observations from a re-analysis of the deposited data

How the results depend on the processing

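Over the 10 settings that kept all 4 libraries, every tested member kept its sign, St8sia1 between 1.06 and 1.17, and St8sia1 was called in 1, that with no low-count filter. That setting called 107 of 22003 genes tested higher and 155 lower, 1 of them a member. DESeq2 called 17 and 38. The tumour number as a replicate block called 21 and 46 and no member; the numbers share no stated meaning, and the differences between tumours 3 and 4 correlated at 0.0659 between groups. Leaving out each library gave between 0 and 160 genes higher, 0 and 156 lower, 0 and 1 members higher, 0 and 1 genes of the other pathway lists higher, and a median of the members between 0.01 and 0.24. In those fits St8sia1 lay between 0.64 and 1.50, St3gal5 between -0.12 and 0.42 and St3gal2 between -0.02 and 0.12, so that the last 2 changed sign. The lone library of a group is then assumed to vary like the other group. With no filter, without sEV replicate 3 and without sEV replicate 4, the prior degrees of freedom were infinite, against 6.48 as reported. By the longest transcript 2 members took another rank in level, and by coding length 5. Depth limits Neu3, B3galt4 and St8sia1 most, at 32 to 38, 133 to 212 and 113 to 335 counts per library.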

Other observations

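Sialic acid-binding lectins of the Siglec family recognise sialylated glycans including gangliosides, and most are receptors on immune cells. They were listed after the members' values were seen, and the list includes Mag, which is a glial protein. Of 9 genes 7 were tested, 5 with positive and 2 with negative log2 fold changes, and none was called by edgeR. Without sEV replicate 3, 4 were positive and 3 negative. Siglec1, a macrophage receptor, had 19.8 and 21.1 CPM with dinutuximab and 24.5 and 26.3 CPM with sEVs, a log2 fold change of 0.31 ± 0.15 (SE; edgeR adjusted p = 0.887). Siglece, an inhibitory receptor of myeloid cells, had 2.30 and 2.13 CPM with dinutuximab and 2.79 and 2.81 CPM with sEVs. Leaving out sEV replicate 3 gave a log2 fold change of 0.36 for Siglec1 and 0.33 for Siglece. Both sEV tumours lay above both others for these genes, as for 18.1% of all genes tested. Cd33 had 3.27 and 6.92 CPM, then 5.00 and 4.68 CPM, which overlap, and Siglech had 0 counts in every library. The 11 macrophage markers summed to 1908 and 2033 CPM with dinutuximab and to 2240 and 2281 CPM with sEVs, and their part in these values was not tested.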
